A study of Mus musculus with 16 samples.

Results

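The Ikaros family consists of 5 zinc finger transcription factors, Ikaros (Ikzf1), Helios (Ikzf2), Aiolos (Ikzf3), Eos (Ikzf4) and Pegasus (Ikzf5). DNA methylation at these genes was compared between B and T cells of the mouse. The members were chosen by gene symbol among 21938 protein-coding genes of GENCODE vM21 on the autosomes and sex chromosomes of mm10, and all 5 were found (in the same order ENSMUSG00000018654.17, ENSMUSG00000025997.13, ENSMUSG00000018168.8, ENSMUSG00000002578.17 and ENSMUSG00000040167.16). For each gene, methylation calls were pooled over tiles of 500 bp from 10 kb upstream of the first transcription start site (TSS) to the end of the gene, over the window within 1 kb of every annotated TSS, and over the gene with its 10 kb upstream as a single gene window.

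Ikaros family proteins bind DNA through zinc fingers near their N-terminus and pair with each other through fingers at their C-terminus, and Ikaros works with chromatin remodelling and histone deacetylase complexes such as NuRD. Ikaros is needed for the development of lymphocytes, Aiolos for the maturation of B cells, and Helios and Eos are best known from regulatory T cells. Methylation of CpG dinucleotides is mostly high in the body of mammalian genes and low at active promoters and enhancers, and its loss along a gene in one lineage often marks regulatory sequence used there.

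The data were 16 whole-genome libraries from C57BL/6J spleens, from mice that were 6 to 8 weeks old, sorted with magnetic beads. There were 8 libraries of resting CD43- B cells and 8 libraries of naive CD4+ CD62L+ T cells, 4 of either sex in both. For each type of cell, 4 libraries were made by bisulphite sequencing (BS), which reads 5-methylcytosine and 5-hydroxymethylcytosine together, and 4 by oxidative bisulphite sequencing (oxBS), which reads 5-methylcytosine alone, so that each of the 8 combinations of cell type, sex and assay had 2 libraries. The labels name no agent and no changed allele, and cells came from pooled mice, so no library is 1 mouse. The protocol split DNA before oxidation, so a BS and an oxBS library can hold DNA of the same mice, and p-values measure only the spread between libraries.

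A methylation level is the percentage of calls that were methylated in a region and library, and a difference between levels is given in percentage points. Levels rest on an average of 5.64 to 7.80 calls per CpG in B cells and 7.06 to 7.76 in T cells. Across all calls, 79.5 to 81.5% were methylated in B cells and 78.5 to 79.7% in T cells. First-TSS windows of defining genes mostly followed the sort labels. Of 8 B cell markers, 7 were called, all higher in T cells, against 1.1% of 20881 first-TSS windows of all genes. Of 8 T cell markers, 7 were higher in B cells, and 6 of these were called, of which Cd3e was at 86.5% in B and 2.63% in T cells. Levels of the T cell markers in T cells ran from 0.330% to 91.1%. None of the 4 myeloid or the 2 NK cell markers was called, and at the share of 1.1% so few genes would seldom give a call. At an unadjusted p under 0.05 (quasi-binomial model), 3 of the 4 myeloid and 0 of the 2 NK cell markers differed, against 25.9% of all such windows. Of the myeloid markers, Lyz2 (46.6% in B, 65.0% in T) and Csf1r (89.9%, 92.6%) were lower in B cells, and Itgam (74.2%, 65.0%) and Cd14 (15.3%, 12.4%) lower in T cells, of which only Lyz2 had an adjusted p under 0.05. Both CD8 markers were lower in T than in B cells, Cd8a at 60.5% against 86.7% and Cd8b1 at 34.9% against 90.3%. The part of other cell types in the results below was not tested.

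Sequences are given for the DNA in which levels of B and T cells differed most. For each gene the called tile with the largest difference is shown, and, for Ikzf1 and Ikzf3, a further tile, the largest among called tiles that had at least 20 calls in all 16 libraries, which was added after values had been seen. Such a tile of Ikzf5 is left out, since its run of bases shows 1 CpG only. Each sequence is a run of 300 bases of the tile, from the reference genome (GRCm38.p6, which has the coordinates of mm10), written 5′ to 3′ on the strand of the gene, with CpGs in capitals.
Ikzf1, chr11:11718501-11718800, plus strand: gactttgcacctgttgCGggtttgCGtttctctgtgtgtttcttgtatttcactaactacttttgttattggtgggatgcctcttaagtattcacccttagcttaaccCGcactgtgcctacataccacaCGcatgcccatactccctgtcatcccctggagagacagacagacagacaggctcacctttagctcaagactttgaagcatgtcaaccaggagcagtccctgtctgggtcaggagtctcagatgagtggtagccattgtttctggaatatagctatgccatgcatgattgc
Ikzf1, chr11:11699501-11699800, plus strand: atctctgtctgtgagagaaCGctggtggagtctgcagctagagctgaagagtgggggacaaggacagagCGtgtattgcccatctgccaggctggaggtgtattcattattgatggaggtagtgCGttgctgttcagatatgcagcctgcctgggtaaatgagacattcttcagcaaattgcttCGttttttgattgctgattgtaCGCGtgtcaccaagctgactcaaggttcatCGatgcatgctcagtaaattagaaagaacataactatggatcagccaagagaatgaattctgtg
Ikzf2, chr1:69692144-69692443, minus strand: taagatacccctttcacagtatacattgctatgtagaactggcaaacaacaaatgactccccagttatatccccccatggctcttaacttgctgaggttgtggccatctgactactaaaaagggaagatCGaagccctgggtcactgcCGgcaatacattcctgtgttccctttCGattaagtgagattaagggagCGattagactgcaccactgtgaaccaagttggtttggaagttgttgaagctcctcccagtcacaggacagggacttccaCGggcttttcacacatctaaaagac
Ikzf3, chr11:98513586-98513885, minus strand: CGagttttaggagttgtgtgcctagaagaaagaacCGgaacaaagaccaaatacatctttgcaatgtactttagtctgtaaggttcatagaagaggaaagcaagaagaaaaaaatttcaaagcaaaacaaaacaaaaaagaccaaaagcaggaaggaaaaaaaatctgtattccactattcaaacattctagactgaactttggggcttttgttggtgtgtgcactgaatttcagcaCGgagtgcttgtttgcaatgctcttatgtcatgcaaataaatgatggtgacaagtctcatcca
Ikzf3, chr11:98470129-98470428, minus strand: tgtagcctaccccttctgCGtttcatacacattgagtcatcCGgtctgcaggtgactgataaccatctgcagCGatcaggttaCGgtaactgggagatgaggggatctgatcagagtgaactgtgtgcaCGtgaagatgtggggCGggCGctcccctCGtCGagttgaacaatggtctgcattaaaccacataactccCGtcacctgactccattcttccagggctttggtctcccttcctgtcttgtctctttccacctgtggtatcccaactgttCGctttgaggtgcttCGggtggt
Ikzf4, chr10:128647069-128647368, minus strand: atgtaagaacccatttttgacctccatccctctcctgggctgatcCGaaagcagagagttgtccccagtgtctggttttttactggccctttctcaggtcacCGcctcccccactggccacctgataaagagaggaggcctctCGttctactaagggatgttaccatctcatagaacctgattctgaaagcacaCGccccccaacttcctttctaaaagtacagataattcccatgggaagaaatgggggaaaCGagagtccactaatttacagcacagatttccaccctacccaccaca
Ikzf5, chr7:131408595-131408894, minus strand: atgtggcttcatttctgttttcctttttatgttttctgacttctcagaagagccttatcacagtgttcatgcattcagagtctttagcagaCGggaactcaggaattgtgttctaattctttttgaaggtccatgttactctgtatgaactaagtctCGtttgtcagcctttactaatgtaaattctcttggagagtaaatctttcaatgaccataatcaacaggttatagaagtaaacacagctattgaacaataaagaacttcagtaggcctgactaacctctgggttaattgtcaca
The whole tiles hold between 4 and 14 CpGs, of which the printed runs show 2 to 12. Their levels in B and T cells stand with each gene.

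Between B and T cells, 96 of 491 tested tiles of the 5 genes differed, and 79 of them were higher in B cells. A tile was called at an adjusted p under 0.05 in a quasi-binomial model across all tiles of the genome and a difference of at least 20 points. Among all 2253012 tiles tested, 3.07% were called (1.96% higher in B, 1.11% higher in T), against 19.6% of the tiles of the family. The share was 49.5% in Ikzf1 (53 of 107 tiles), 19.4% in Ikzf3 (26 of 134), 7.07% in Ikzf2 (13 of 184), 6.90% in Ikzf5 (2 of 29) and 5.41% in Ikzf4 (2 of 37). Libraries of B and T cells did not overlap in 87 of the 96 called tiles (90.6%), against 85.8% of all called tiles. All 96 differed in the same direction in BS and in oxBS libraries, as did 69184 of the 69185 called tiles of the genome, and in female and in male libraries, as did all of those 69185. Fewer tiles were called within a single assay or sex, 3.50 to 9.5% of the tested tiles of the family, against 0.805 to 1.23% of all tiles. Of the called tiles, 74 lay in introns (77.1%, against 69.0% of the tested tiles of the family), 16 overlapped an exon (16.7%, against 19.3%) and 6 lay upstream of the gene (6.25%, against 11.6%). The genes differed in this. In Ikzf1, 47 of 53 called and 82 of 107 tested tiles lay in introns. In Ikzf3, 11 of 26 called tiles overlapped an exon, against 28 of 134 tested tiles. Neighbouring tiles share reads and are not independent of each other. Tiles at 20% or less in T cells alone numbered 33 (6.72%, against 0.638% of all tiles), in B cells alone 5 (1.02%, against 0.405%), and in both cell types 44 (8.96%, against 3.05%).

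**Figure D1:**
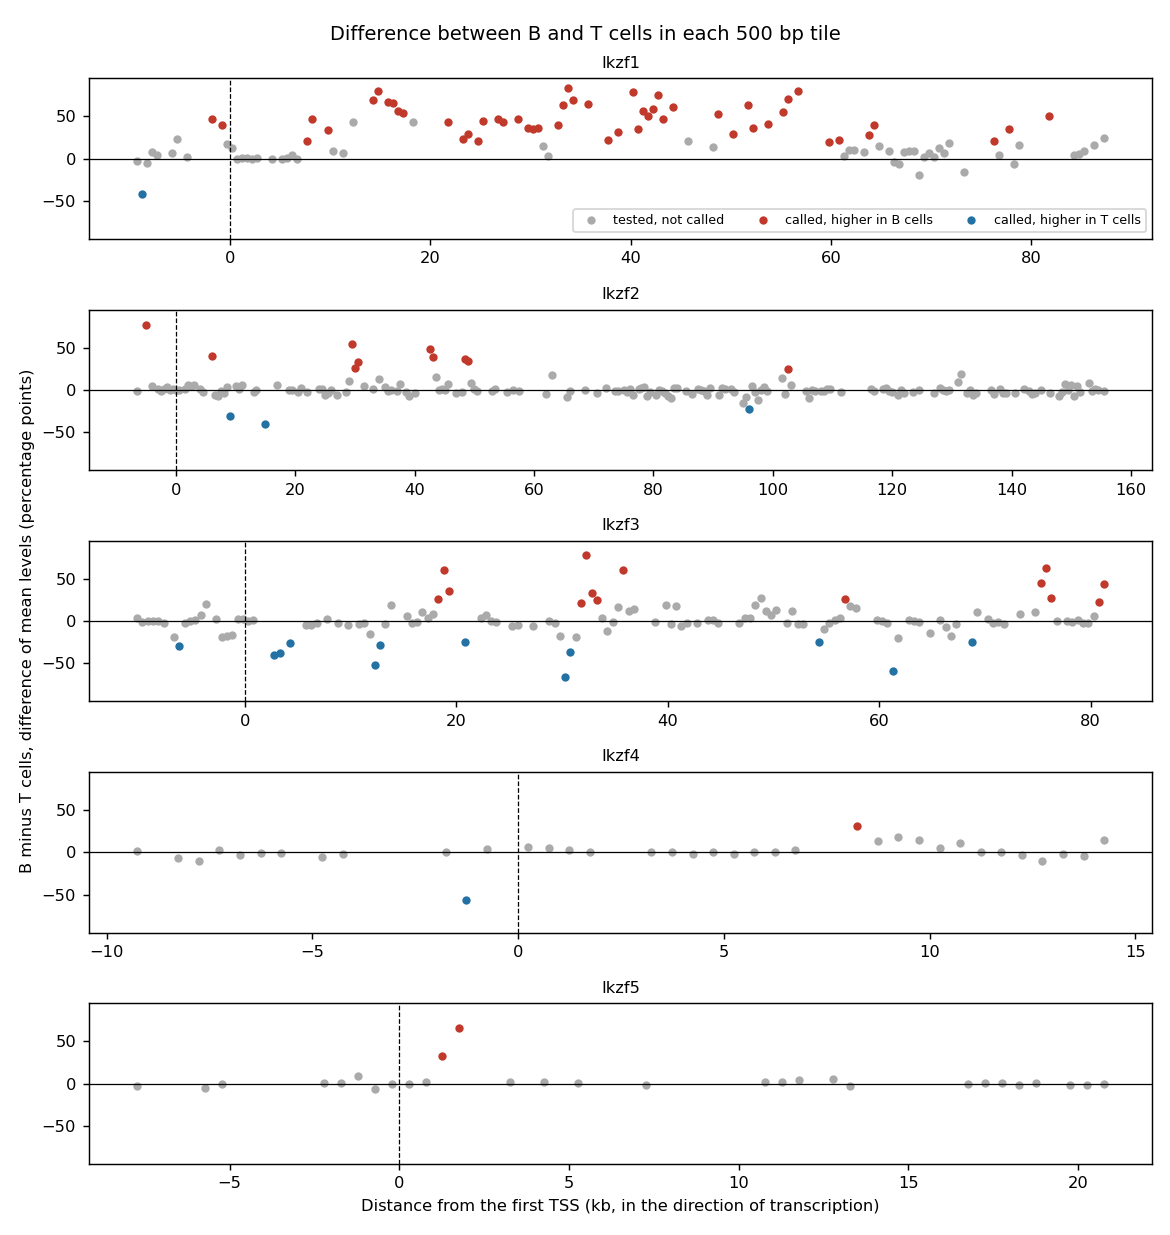
Difference of the mean methylation level between B and T cells (percentage points, vertical) in each tested 500 bp tile of the 5 genes against distance from the first TSS (kb, horizontal, dashed line at the TSS). Red and blue points are called tiles with the higher level in B (79) or T cells (17), and grey points are tested tiles that were not called. In Ikzf1, 52 of 53 called tiles are above 0, while in Ikzf3 14 are above and 12 below.

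Ikzf1, which encodes Ikaros, was less methylated in T cells over 52 called tiles (chr11:11685003-11772926, plus strand). The level of its gene window, with 977 CpGs and 5353 to 8270 calls per library, ran from 56.1% to 63.4% in B cells, with a median of 59.7%. In T cells it was between 26.7% and 44.3%. The median of 35.3% fell between the oxBS libraries (26.7% to 29.8%) and the BS libraries (40.9% to 44.3%) of T cells. Every B cell library was thus above every T cell library. The means were 59.7% ± 2.62 (SD, n = 8) and 35.4% ± 7.57 (SD, n = 8), a difference of 24.3 points (adjusted p = 4.8e-05 in the quasi-binomial model over 21574 genes). In female libraries alone it was 24.0 points (adjusted p = 0.0430), and in male libraries alone 24.7 points, which did not pass (adjusted p = 0.0712). A two-sided exact permutation test, which took no account of sex or assay, gave p = 0.000155, the smallest that 8 against 8 libraries can give. The difference was the 28th largest in the direction of higher B cells among these genes, of which 24.8% differed between B and T cells at an adjusted p under 0.05 (21.2% higher in B, 3.59% higher in T). Gene windows of Ikzf4 and Ikzf5 also passed that threshold, so that 3 of the 5 genes did.

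At the 5 annotated TSSs of Ikzf1, which lie within 1.44 kb of each other, both cell types were at 20% or less. The window of the first TSS was at 10.7% ± 2.22 (SD, n = 8) in B cells and 4.25% ± 2.09 (SD, n = 8) in T cells. Its libraries did not overlap (adjusted p = 0.00162, quasi-binomial model), with a difference under 20 points. The window of Ikzf1-201 was at 0.330% and 0.0966%. The tiles at 20% or less around these TSSs formed an unbroken stretch of 3500 bp in T cells (chr11:11684501-11688000) and of 3000 bp in B cells (chr11:11685001-11688000). Just upstream, tiles at chr11:11683001-11683500 (83.6% in B and 36.1% in T cells) and chr11:11684001-11684500 (89.4% and 49.1%) were lower in T cells. From 7.50 to 64.5 kb downstream of the first TSS, T cells were lower in each called stretch of adjacent tiles.

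The longest called stretch of Ikzf1 was 3500 bp of an intron (chr11:11725001-11728500), with 42 CpGs in 7 called tiles. Its level was 69.4% ± 5.90 (SD, n = 8) in B cells and 12.9% ± 6.6 (SD, n = 8) in T cells, a difference of 56.6 points. Libraries ranged from 59.6% to 78.8% (B) and 5.90% to 23.5% (T), without overlap. A stretch of 1000 bp at 14 to 15.0 kb (chr11:11699001-11700000) was nearly unmethylated in T cells, at 3.46% against 78.7% in B cells. Within it lies the tile chr11:11699501-11700000, whose B cell libraries were between 65.5% and 97.4% with a median of 85.9%, and whose T cell libraries were between 0% and 10.1% with a median of 2.33% (adjusted p = 2.01e-06, quasi-binomial model). The tile with the largest difference, chr11:11718501-11719000, stood at 91.0% ± 9.57 (SD, n = 5) in B cells and 7.58% ± 5.01 (SD, n = 5) in T cells, and had at least 20 calls in only 5 libraries of each cell type. In all, 22 of the 107 tested tiles were at 20% or less in T cells alone, and none in B cells alone.

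Only 1 of the 53 called tiles of Ikzf1 was higher in T cells. It lay upstream of the gene (chr11:11676001-11676500), at 45.5% in B cells and 87.5% in T cells. Beyond 64.5 kb, 3 called tiles between 76.0 and 82.0 kb were lower in T cells, by 20.6 to 50.9 points. The median over all tested tiles of Ikzf1 was 83.6% in B cells and 36.7% in T cells, against 92.3% and 91.8% over all tiles of the genome.

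**Figure D2:**
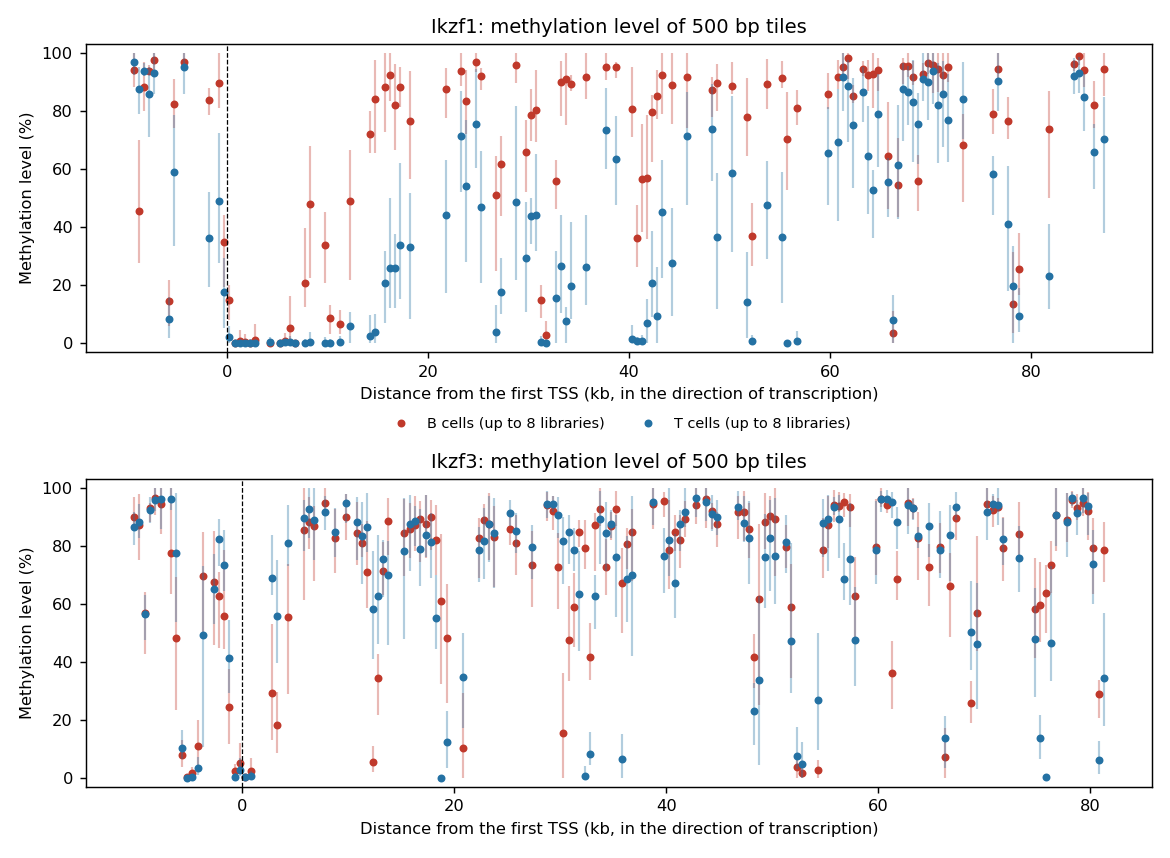
Methylation level (%, vertical) of each tested 500 bp tile of Ikzf1 and Ikzf3 against distance from the first TSS (kb, horizontal). Points are means over up to 8 libraries of B cells (red) and T cells (blue), and vertical lines run from the lowest to the highest library. In Ikzf1, 22 tiles are at 20% or less in T cells alone and 0 in B cells alone, and in Ikzf3 8 and 5.

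Ikzf3 encodes Aiolos (chr11:98464902-98546031, minus strand), and its called tiles went both ways, 14 towards higher B cells and 12 towards higher T cells. Over its gene window, B cell libraries were between 60% and 69.5% and T cell libraries between 56.2% and 68.6%, and they overlapped. The difference of 2.77 points did not pass the test (adjusted p = 0.309, quasi-binomial model, exact permutation p = 0.186, n = 8 and 8), and it was -2.16 points in BS libraries alone. Its tiles at 20% or less numbered 8 in T cells alone, 5 in B cells alone and 11 in both.

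Stretches of Ikzf3 that were lower in T cells lay in introns and over exons. The stretch at 75.0 to 76.5 kb (chr11:98469501-98471000, 31 CpGs) was at 18.1% in T cells and 65.5% in B cells. Its tile chr11:98470001-98470500 was between 0% and 1.43% in T cell libraries and between 50% and 73.3% in B cell libraries. At 18.0 to 19.5 kb (chr11:98526501-98528000), T cells were at 20.1% and B cells at 61.9%, and in the tile chr11:98527001-98527500 no methylated call was found in any of the 8 T cell libraries, while B cells were at 60.8% ± 15.9 (SD, n = 8). The largest difference of the gene was within the stretch at 31.5 to 33.5 kb, where the tile chr11:98513501-98514000 stood at 79.3% ± 5.78 (SD, n = 7) in B cells and 0.571% ± 1.51 (SD, n = 7) in T cells. This difference of 78.7 points was 41.8 points with tiles of 1000 bp and 35.2 points with the grid moved, in the tile that overlaps it most.

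Stretches that were lower in B cells lay both near the promoter and further in. The stretch at 2.53 to 3.53 kb (chr11:98542501-98543500) was at 23.1% in B cells and 60.9% in T cells, and that at 12 to 13 kb (chr11:98533001-98534000) was at 17.7% and 60.2%. Next to the T cell stretch at 31.5 to 33.5 kb, the tile chr11:98515501-98516000 was low in B cells, at 15.6% ± 12 (SD, n = 7), and high in T cells, at 81.5% ± 8.84 (SD, n = 8). Between these stretches of opposite direction lay a single tile. At 61.0 to 61.5 kb the tile chr11:98484501-98485000 was at 36.1% in B cells and 95% in T cells.

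Ikzf2 encodes Helios (chr1:69531214-69687245, minus strand), and 13 of its 184 tested tiles were called. The gene window was 79.6% to 82.1% in libraries of B cells and 76.6% to 81.5% in those of T cells, and the groups overlapped (difference 2.03 points, adjusted p = 0.0931, quasi-binomial model). The difference was -0.551 points in BS libraries alone, and 4.60 points in oxBS libraries alone, where it passed (adjusted p = 0.00973). The median tile stood at 92.7% in B cells and 93.8% in T cells. Of the called tiles, 10 were lower in T cells. The largest difference lay upstream of the gene (chr1:69692001-69692500, centred at -5.01 kb from the first TSS), where B cell libraries were between 77.8% and 95.7% and T cell libraries between 5.56% and 16.9% (means 88.1% and 10.7%). Stretches lower in T cells also lay at 5.75 to 6.24 kb (48.6% in B and 8.09% in T cells), 29.2 to 30.7 kb (47.3% and 14.6%) and 42.2 to 43.2 kb (93.7% and 53.4%). The 3 tiles higher in T cells included chr1:69672001-69672500, 14.7 to 15.2 kb into the gene, at 28.9% ± 5.35 (SD, n = 8) in B cells and 69.0% ± 4.07 (SD, n = 8) in T cells.

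Ikzf4 (Eos, chr10:128630843-128645991, minus strand) and Ikzf5 (Pegasus, chr7:131388652-131410521, minus strand) are short genes with 2 called tiles each. In Ikzf4, the upstream tile chr10:128647001-128647500, centred at -1.26 kb from the first TSS, was at 34.3% ± 8.77 (SD, n = 8) in B cells and 91.3% ± 4.71 (SD, n = 8) in T cells. It overlaps the annotated gene Gm26876. The difference of -57.0 points depended on the placing of the tile: in the tile that overlaps it most, it was -13.2 points with tiles of 1000 bp and -3.63 points with the grid moved. The other, in an intron 7.99 to 8.49 kb into the gene, was at 70.9% in B cells and 39.7% in T cells. In Ikzf5, both called tiles lay near the promoter, at 1.02 to 2.02 kb (chr7:131408501-131409500), and were lower in T cells, at 22.1% against 67.6%. The larger difference, 66.2 points, was 40.1 points with tiles of 1000 bp. The annotation of Fgfr2 overlaps both tiles. Over the gene windows, B cells were higher by 4.02 points in Ikzf4 (79.9% against 75.8%, adjusted p = 0.0263) and by 4.65 points in Ikzf5 (57.1% against 52.4%, adjusted p = 0.0424, quasi-binomial model), with groups that overlapped. Neither passed in BS, in female or in male libraries alone, nor did Ikzf5 in oxBS libraries alone. With libraries left out one at a time, the call of Ikzf4 was lost without T female oxBS 14 or 16, T male oxBS 8, or B male oxBS 2 or 3 (adjusted p up to 0.0554), and that of Ikzf5 was lost without any library but B male BS 4, T male BS 7 and T female oxBS 16 (up to 0.0873).

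At the annotated TSSs, 0 of 30 windows were called, against 1.81% of the 91683 TSS windows of all protein-coding genes (1.19% higher in B, 0.615% higher in T). Of the 30, 20 (66.7%) had an unadjusted p under 0.05, against 29.5% of all TSS windows. An adjusted p under 0.05 in the quasi-binomial model was reached by 10 (33.3%), against 15.4%, with differences under 20 points, and limma called 0. These 10 were all higher in B cells, with 4 of Ikzf1, 4 of Ikzf2, 1 of Ikzf3 and 1 of Ikzf4. Windows of neighbouring TSSs share CpGs. In 20 of the 30 (66.7%, against 46.1% of all TSS windows), both cell types were at 20% or less, which included all windows of Ikzf1 and Ikzf2, 2 of 4 of Ikzf3 and 6 of 7 of Ikzf5. Of the 7 TSSs of Ikzf4, 6 lie in a tile (chr10:128645501-128646000) whose mean level was 20% or less in both cell types. Its windows of 1 kb on each side of a TSS, which reach beyond that tile, were partly methylated. That of its first TSS ranged from 19.3% to 42.3% across B cell libraries, which overlapped the 15.3% to 27.9% of T cells. Of the TSSs inside genes, that of the processed transcript Ikzf3-202 (57 kb into the gene) had the largest difference, with 88.6% ± 3.20 (SD, n = 8) in B cells and 71.5% ± 5.90 (SD, n = 8) in T cells, and it was called at 500 bp on each side, where the difference was 23.1 points. That of Ikzf3-204 stood at 51.6% and 50.9%, and that of a retained intron transcript of Ikzf5, 16.9 kb into the gene, at 97.1% and 97.6%.

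**Figure D3:**
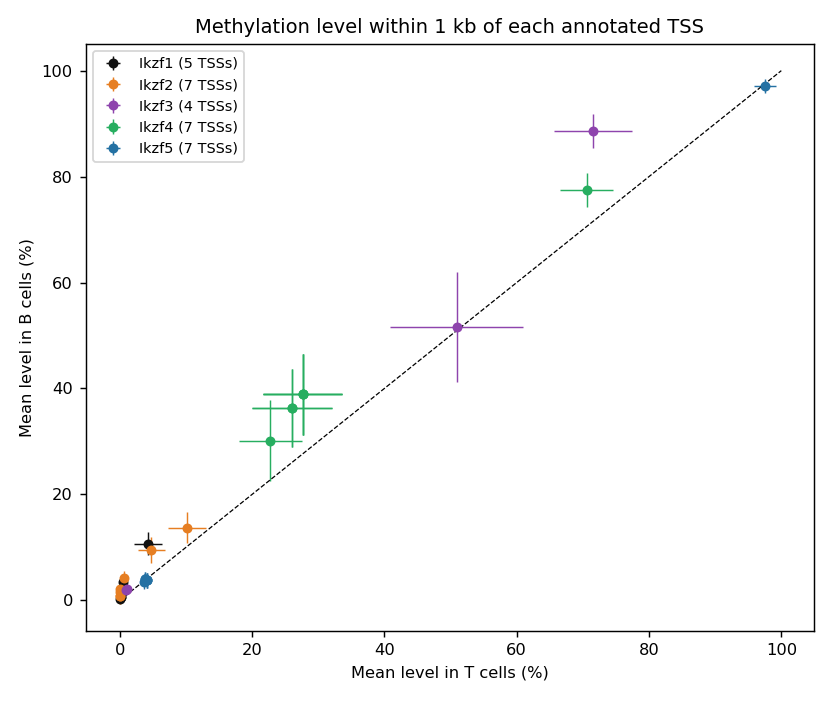
Mean methylation level (%) within 1 kb of each of the 30 annotated TSSs in B cells (vertical) against T cells (horizontal), with SD over 8 libraries as bars and the line of equality dashed. Most points of Ikzf1, Ikzf2 and Ikzf5 crowd near 0, those of Ikzf4 lie at 30.1 to 38.9% in B cells with 1 at 77.4%, and Ikzf3-202 lies above the line at 88.6% against 71.5%.

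Levels differed between BS and oxBS libraries in T cells, and no difference was detected in B cells. In T cells, the BS libraries of the Ikzf1 gene window were at 44.3%, 40.9%, 42.8% and 41.6%, and the oxBS libraries at 29.8%, 28.7%, 26.7% and 28.5%. Each BS library was thus above each oxBS library. The means were 42.4% ± 1.49 (SD, n = 4) and 28.4% ± 1.3 (SD, n = 4). The difference of 14 points passed the test (adjusted p = 0.0053, quasi-binomial model over all genes). In B cells, the BS libraries averaged 59.0% and the oxBS libraries 60.5%, with no detectable difference (adjusted p = 1.00, quasi-binomial model, exact permutation p = 0.457).

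Of the other members, Ikzf3 was at 65.6% in BS and 57.8% in oxBS libraries of T cells (7.79 points, adjusted p = 0.0314), Ikzf4 at 78.2% and 73.5% (4.66 points, adjusted p = 0.0235) and Ikzf2 at 80.8% and 76.9% (3.98 points, adjusted p = 0.0268), each in the quasi-binomial model over all genes. Ikzf5 was at 53.9% and 51.0%, and its difference of 2.87 points did not pass (adjusted p = 0.537). BS libraries of T cells were above all oxBS libraries in the 4 genes that passed, where an exact permutation test gave p = 0.0286, the smallest that 4 against 4 libraries can give. Thus 4 of 5 members differed in T cells, against 6.08% of 21580 genes, and 0 of 5 in B cells, against 0% of genes, and limma likewise called 4 and 0. Unadjusted p-values under 0.05 numbered 4 in T cells and 0 in B cells among the 5 genes, against 20.9% and 3.72% of all genes. The 4 calls fell to 1 or 2 when any of the 8 T cell libraries was left out. Ikzf1 passed in each of these (adjusted p up to 0.0343, quasi-binomial model), Ikzf2 only without T male BS 5 (adjusted p = 0.0275), and Ikzf3 and Ikzf4 in none. Among 21540 genes, the T cell difference ranked 17th in Ikzf1, 352nd in Ikzf3, 1653rd in Ikzf4, 2327th in Ikzf2 and 4166th in Ikzf5. The median gene had 0.941 points in T cells and -0.468 points in B cells. The whole set of calls had 0.892 points in T cells. Conversion of spiked control DNA was not analysed here, so the zero point of BS minus oxBS was not checked against a standard. The differences are therefore not a calibrated amount of 5-hydroxymethylcytosine. The paper treated both assays alike in its screen, and describes hydroxymethylation as very low in these samples.

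**Figure D4:**
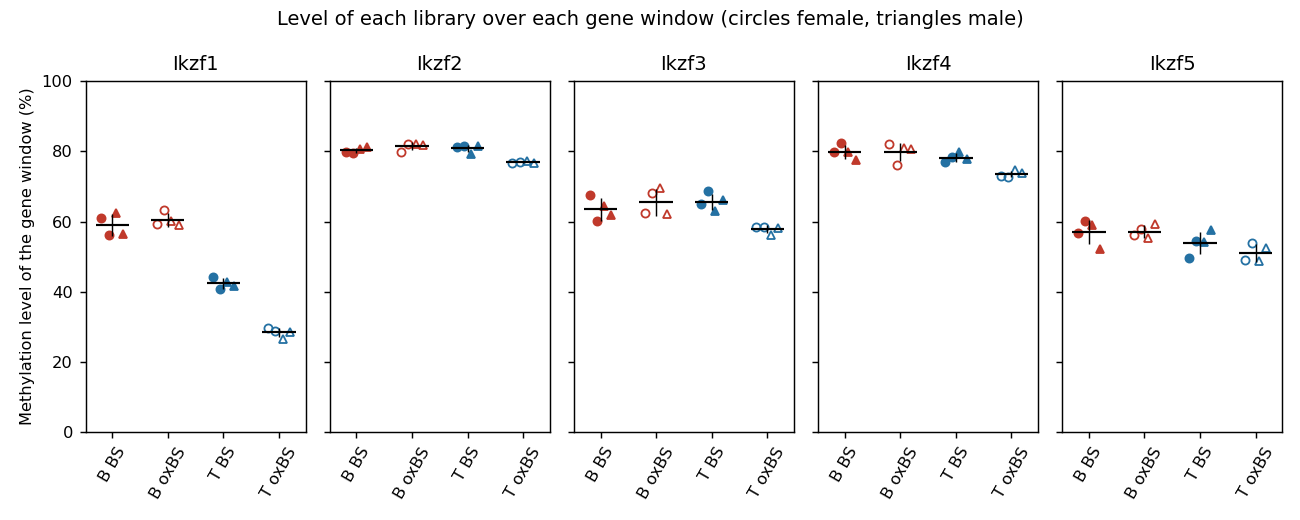
Methylation level (%, vertical) of each library over the gene window of each of the 5 genes, by cell type and assay (horizontal). Circles are female and triangles male libraries, filled for BS and open for oxBS, and horizontal bars with vertical lines are means with SD (n = 4). In Ikzf1 the T cell BS libraries (40.9 to 44.3%) lie between the B cell libraries (56.1 to 63.4%) and the T cell oxBS libraries (26.7 to 29.8%).

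The test of the difference itself, an interaction of cell type and assay over gene windows, was added after the values of each assay were seen. BS minus oxBS was 15.4 points larger in T than in B cells in Ikzf1 (adjusted p = 0.00339, quasi-binomial model) and 5.15 points larger in Ikzf2 (adjusted p = 0.0116), and did not pass in Ikzf3 (9.86 points, adjusted p = 0.0845), Ikzf4 (4.69 points, adjusted p = 0.231) and Ikzf5 (2.97 points, adjusted p = 0.591). Among 21574 genes, 4.22% passed. The B cell excess in Ikzf1 was 16.6 points in BS and 32.1 points in oxBS libraries. In Ikzf2 and Ikzf3 the mean difference did not have the same sign in both assays. B cells were lower by 0.551 and 2.16 points in BS libraries, where B and T cells overlapped in both genes. They were higher by 4.60 and 7.70 points in oxBS libraries. As the interaction did not pass in Ikzf3, its change of sign is a description only.

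The difference between BS and oxBS was spread along Ikzf1. In T cells, BS was above oxBS in 101 of 114 tested tiles of Ikzf1, with a median of 12.3 points and a highest value of 40.4, and 65 tiles (57%) reached 10 points, against 4.35% of all tiles of the genome. In B cells the median was 0.00 points and 3 of 108 tiles reached 10, against 1.15% of all tiles. Pooled over the tiles at 20% or less in both cell types, BS minus oxBS in T cells was 1.15 points. Pooled over the 53 called tiles it was 18.6 points, from 39.4% to 20.8%, and over the remaining 36 tiles 12.9 points, from 84.5% to 71.6%. The last of these were not called between B and T cells, and B cells had 86.8% in BS and 87.1% in oxBS libraries there.

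In Ikzf3, 55 of 144 tiles (38.2%) reached 10 points in T cells, with a median of 7.09 points. Its called tiles that were higher in T cells had 72.8% in BS and 60.6% in oxBS libraries of T cells, and those higher in B cells 31.7% and 23.9%. Ikzf2, Ikzf4 and Ikzf5 had 8 of 198 (4.04%), 3 of 38 (7.89%) and 0 of 33 tiles at 10 points or more, against 4.35% of all tiles. No single tile of the family passed the adjusted test of BS against oxBS, in either cell type, nor did any tile of the genome. With dispersion not held at 1, in T cells 6 of 527 tiles of the family passed (1.14%), against 0.267% of all tiles. At an unadjusted p under 0.05, 128 of 527 tiles of the family differed in T cells, all higher in BS, against 4.03% of all tiles. Most lay in Ikzf1 (60 of 114) and Ikzf3 (55 of 144). Ikzf4 had 7 of 38, Ikzf2 5 of 198 and Ikzf5 1 of 33. In B cells 1 of 502 tiles differed, against 0.922% of all tiles. The interaction of cell type and assay likewise gave 0 calls in the 491 tiles, and 0 in all 2253012 tiles of the genome. At an unadjusted p under 0.05 there were 80 of 491 tiles (16.3%), against 4.62% of all tiles. With limma, 0 tiles of the family were called.

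**Figure D5:**
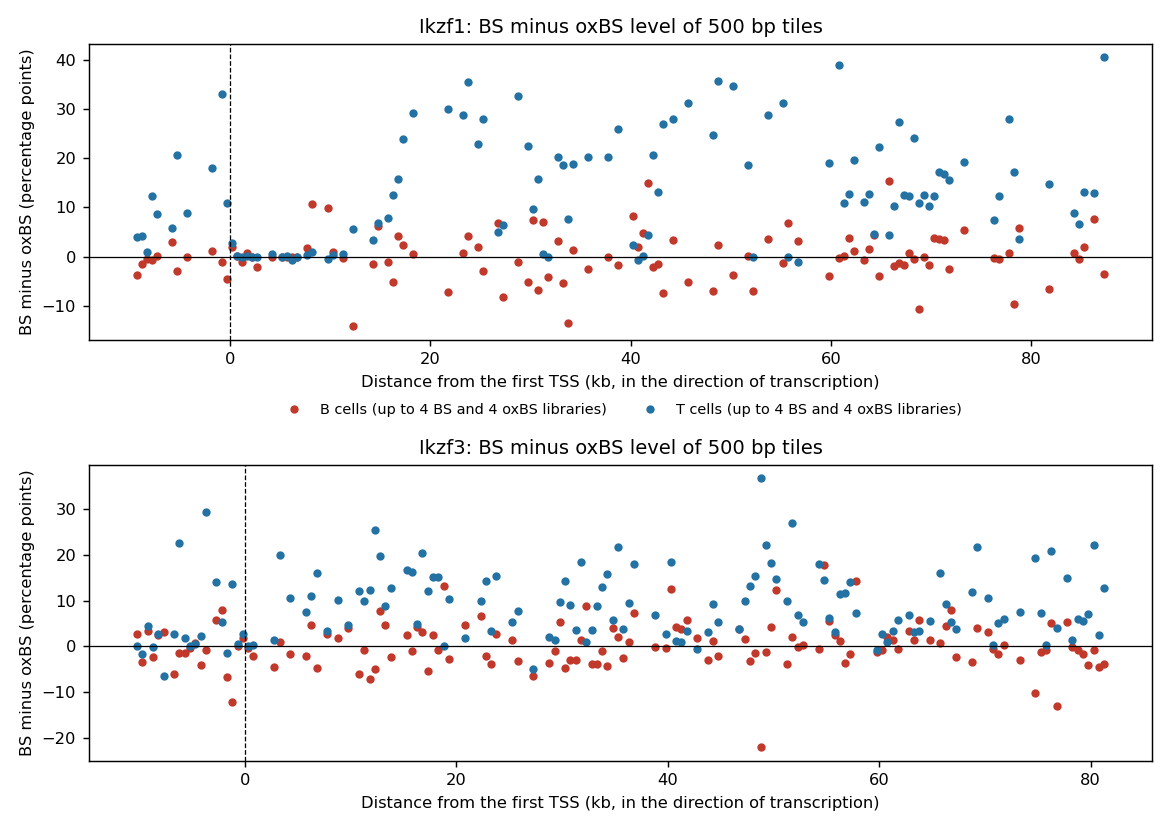
BS minus oxBS (percentage points, vertical) in each 500 bp tile of Ikzf1 and Ikzf3 that was tested between cell types, against distance from the first TSS (kb, horizontal). Points are differences of means over up to 4 BS and 4 oxBS libraries of B cells (red) and T cells (blue). T cell points of Ikzf1 reach 40.4 points, while B cell points of Ikzf1 run from -14.1 to 15.3.

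Sex made no detectable difference. No gene window of the family differed between female and male libraries in B cells (lowest adjusted p = 1.00) or in T cells (lowest adjusted p = 0.796, quasi-binomial model), and 0 of 5 had an unadjusted p under 0.05 in either, against 4.22% (B) and 6.95% (T) of all genes. At an adjusted p under 0.05, 0.0463% (B) and 0.12% (T) of all genes differed by sex. The largest difference was 1.69 points, in Ikzf3 of T cells. The interaction of cell type and sex was called in 0 of 491 tiles by the quasi-binomial model and by limma. The quasi-binomial model also called 0 of all 2253012 tiles, so its 0 is not particular to these genes. At an unadjusted p under 0.05 there were 8 (1.63%), against 2.67% of all tiles.

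Partners of Ikaros family proteins had low mean levels at their promoters in both cell types. The list held 21 genes of the NuRD, SWI/SNF, Sin3 and CtBP complexes and cereblon. Cereblon of human cells targets Ikaros and Aiolos for degradation in the presence of thalidomide analogues. None of the 21 first-TSS windows was called, against 1.1% of 20881 such windows, and in all of them the means of both cell types were at 20% or less, with a median of 4.45% in B and 3.25% in T cells. Over all genes, 55.1% of first-TSS windows were at 20% or less in both, and the medians were 15.1% and 13.8%. At an unadjusted p under 0.05, 7 of the 21 differed (33.3%), against 25.9% of all such windows. The X-linked Rbbp7 varied most between libraries, at 18.4% ± 19.4 (SD, n = 8) and 18.5% ± 20.3 (SD, n = 8). Its 8 female libraries were all between 30.3% and 46.0% and its 8 male libraries between 0% and 1.97%, so that it was at 20% or less by its mean over both sexes only.

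Of 22 genes that textbooks give as regulated by Ikaros family proteins, 8 were called at their first-TSS window, 4 in each direction, where 0.699% of all genes were called higher in B and 0.397% higher in T. The list was picked with earlier results of these data known and holds genes of both lineages, 2 of which are also B cell markers and 2 CD8 markers. Higher in T cells were Igll1, a part of the surrogate light chain (16.4% in B and 83.1% in T cells), and the adaptor Blnk (12.5% and 58.0%). So were the B cell receptor subunits Cd79a (11.7% and 76.2%) and Cd79b (11.9% and 41.7%). Higher in B cells were the coreceptors Cd4 (72.6% and 14%), Cd8b1 and Cd8a, and Il2ra, a subunit of the interleukin 2 receptor (32.7% and 12.4%). In all 8, the ranges of both cell types stood apart, as they did in 93.0% of all called first-TSS windows. The median difference over the list was 3.48 points, against 0.571 over all genes.

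Genes with a pattern like that of each member were those whose gene windows had the smallest root mean square difference of level over the 16 libraries. For Ikzf1 these were Rhoh (3.67 points), Thy1 (3.90) and Gimap1 (4.0), at 59.5%, 60% and 57.3% in B cells and 32.1%, 31.8% and 35.5% in T cells. For Ikzf3 they were Ptpn1 (1.95), Atp1b1 (2.15) and Tpm3 (2.43). Those of Ikzf2 were Rnf213, Man1c1 and Taok3 (1.01 to 1.09 points), those of Ikzf4 Paqr8, P2rx7 and Snx27 (1.59 to 1.63) and those of Ikzf5 Rab20, Rnf31 and Lyrm7 (2.06 to 2.26).

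Called tiles were searched on both strands for TGGGAA, which contains the core of the Ikaros site, GAGGAA, found in sites of ETS factors such as PU.1, TGTGGTT, a core of RUNX sites, and CAGGTG, an E-box. TGGGAA occurred in 46 of the 96 called tiles of the family (47.9%), against 40% of all tested and 38.9% of all called tiles of the genome. GAGGAA occurred in 38 (39.6%, against 39.9% of tested and 44.4% of called tiles). TGTGGTT was found in 14 (14.6%), which was above its 11.4% of tested tiles and below its 17.8% of called tiles. CAGGTG was in 30 (31.2%, against 32.1% and 38.2%). These shares were not tested, and a match is a run of letters and not a bound site.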

How the data were processed

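The data were BS and oxBS whole-genome libraries of sorted B and T cells, 8 per cell type. The authors deposited, for each CpG and library, counts of unmethylated and of methylated calls, with strands combined, replicates not pooled and no normalisation. Per the labels and the study's methods, reads were trimmed with Trim Galore 0.6.0 and mapped to mm10 with Bismark 0.20.0, SAMtools 1.3.1 was used, and alignments under a MAPQ of 10 gave no calls. Reads that map poorly in repeats are thereby missing.

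CpGs of the reference were taken from GRCm38.p6, and 44941 to 61858 listed positions per library that were not CpGs were left out, as were positions outside the chromosomes. Both male BS libraries of B cells list 242 and 243 such positions outside the chromosomes, against 16429 to 17017 in the others. Libraries held between 123693203 and 171130063 calls. A library counted in a region with at least 20 calls, and at least 5 libraries per cell type and 3 CpGs were required. Comparisons of cell types within 1 assay or sex, 4 against 4 libraries, required 3 per cell type. BS against oxBS within a cell type required 5 of its 8 libraries, with no minimum per assay. Counts were tested by quasi-binomial logistic regression on cell type, adjusted for sex and assay (Python 3.11.15, numba 0.67.0, scipy 1.17.1), with an F test, dispersion held at 1 or more and Benjamini-Hochberg adjustment over all regions of the genome. Tiles and TSS windows were called at an adjusted p under 0.05 and 20 points, gene windows at the adjusted p alone. Single values were tested by two-sided exact permutation over libraries. Tests of limma 3.58.1 (R 4.3.3) on log2 ratios with a pseudocount of 1 were an alternative. Scripts were tested on simulated data. Calls of 1 read are not independent, so precision is lower than counts imply.

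Members, gene lists and tests were chosen with earlier results of these data known. Named were all members, up to 5 called tiles per gene with the largest differences, adjacent called tiles as stretches, and up to 5 called genes per list. Markers, further list genes (Cd79b, Cd8a, Il2ra, Rbbp7), further stretches, and the BS against oxBS tests of tiles and of the interaction over gene windows were chosen after values had been seen.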

Additional observations from a re-analysis of the deposited data

Results flagged for a closer look

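In 10 groups of 8 or fewer libraries, 1 library stood apart from the others of its cell type by Dixon's criterion, among 106 groups checked. Chance marks about 1 in 20 groups if they are independent and normally spread. Levels near 0%, where most of the flags lie, and windows that share CpGs do not meet this, so that rate is a rough guide only. In TSS windows, library B female oxBS 9 was at 1.67% at Ikzf1-201, where the median of B cells was 0.135%. Library B male oxBS 2 was at 4.62% at Ikzf2-202 and 4.68% at Ikzf2-205, whose windows share CpGs (medians 0.309% and 0.310%). Library T female BS 13 was at 0.322%, 0.323% and 0.746% at Ikzf2-202, at Ikzf2-205 and at the Ikzf2 TSS 1.36 kb into the gene (medians 0.117%, 0.0620% and 0%). In tiles, T female oxBS 14 was at 4.35% in Ikzf1 from 11741501, T male BS 5 at 6.12% in Ikzf1 from 11725001 and T female BS 15 at 4.0% in Ikzf3 from 98513501, against medians of 0%, 0.877% and 0%. In the Ikzf2 tile from 69657501, T female BS 13 was at 61.5%, against a median of 28.6%. It was the only BS library of T cells with at least 20 calls there, and the other T cell libraries were oxBS.

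BS minus oxBS over the gene window differed between T and B cells in Ikzf1, by 15.4 points (adjusted p = 0.00339, quasi-binomial model), and in Ikzf2, by 5.15 points (adjusted p = 0.0116).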

How the results depend on the processing

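The count of 96 called tiles of 491 was 43 of 225 with at least 40 calls per library, 23 of 464 in BS libraries alone, 44 of 463 in oxBS libraries alone, 21 of 462 in female and 16 of 457 in male libraries alone, and 86 to 98 with 1 library left out. These were shares of 19.1%, 4.96%, 9.5%, 4.55% and 3.50%, against 3.42%, 0.808%, 1.23%, 0.805% and 0.812% of all tiles tested in the same way. TSS windows called numbered 1 of 30 (Ikzf3-202, 3.33%) with a difference of at least 10 points, in oxBS libraries alone and with 500 bp on each side, against 4.56%, 1.95% and 2.20% of all TSS windows. Called targets numbered 5 of 22 (22.7%) at 30 points, against 0.502% of all first-TSS windows. The largest tile difference of Ikzf1 was 69.3 points with tiles of 1000 bp. It was 70.8 in BS libraries alone (2 against 2 libraries with enough calls) and 93.8 in female libraries alone (1 of B against 3 of T cells), too few for a test. In Ikzf3 it was 41.8 (1000 bp) and 35.2 (grid moved). In Ikzf4 it was -81.1 (shorter tiles), -13.2 (1000 bp) and -3.63 (grid moved), and in Ikzf5 54.8 (mean of CpG fractions), 40.1 (1000 bp) and 52.2 (grid moved). Over gene windows, B minus T cells turned to -0.551 points in Ikzf2 and -2.16 in Ikzf3 in BS libraries alone, and the cause was not tested. Ikzf2 was at 4.60 points in oxBS libraries alone and passed (adjusted p = 0.00973, quasi-binomial model). Ikzf4 did not pass at 1.68 (BS), 4.82 (female) and 3.23 points (male), nor Ikzf5 at 3.16 (BS), 6.13 (oxBS), 6.02 (female) and 3.27 points (male), nor Ikzf1 at 24.7 points in male libraries alone (adjusted p = 0.0712). With 1 library left out, Ikzf1 ranged from 23.1 to 25.6 points, Ikzf4 from 3.56 to 4.57 and Ikzf5 from 4.11 to 5.36, and the genes that differed between BS and oxBS in T cells numbered 1 to 2. Tiles that differed between BS and oxBS in T cells numbered 6 of 527 (1.14%, against 0.267% of all tiles) with dispersion not held at 1, an alternative chosen after seeing the data. Of all alternative values, 706 kept their direction and side of the threshold or moved little, 69 moved further, 49 no longer passed, 1 newly passed and 2 reversed. No paired analysis was possible because each library has a number of its own and the groups share none. Depth of 5.64 to 7.80 calls per CpG limits tiles with few CpGs.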
